A study of Mus musculus with 12 samples.

Results

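The 10 genes described here encode enzymes that build and sulfate heparan sulfate. They were Ext1 and Ext2, which polymerise the chain, Ndst1, Ndst2 and Ndst3, which N-deacetylate and N-sulfate it, Hs2st1, which adds 2-O-sulfate, Hs6st1, Hs6st2 and Hs6st3, which add 6-O-sulfate, and Hs3st1, which adds 3-O-sulfate. All 10 were found among the 38720 genes of the deposited tables, and all 10 passed the filter on low values in both cell fractions. Hs6st3 was chosen by its measured fall in knockout non-RGCs, and the other 9 because they belong to the same pathway, so no threshold separated them from genes outside. The values of Hs6st3 in non-RGCs are therefore given as a description, without a test.

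Retinas were taken at birth (postnatal day 0, P0) from C57/BL6 mice of 2 genotypes and split into 2 cell fractions, which gave 4 groups of 3 libraries, each group from independent RNA extractions. The mKO mice (Math5-Cre;Ezh2 flox/flox) carried Cre recombinase knocked in at Math5, also called Atoh7, together with Ezh2 alleles in which loxP sites flank the exons of the catalytic SET domain. Ezh2 is the methyltransferase of polycomb repressive complex 2 (PRC2), which deposits the repressive histone mark H3K27me3. The controls were labelled wild type (WT). The paper names floxed littermates as its usual controls. For RNA-seq its methods name WT mice, whereas its results speak of littermate controls. The alleles of these controls beyond the WT label were not given in the sources used here. No mouse was treated. Math5 drives Cre in the precursors of retinal ganglion cells (RGCs), and only part of the RGCs of this line express it. The fraction called RGC was pulled from papain-dissociated retina with magnetic beads against CD90 (Thy-1), and non-RGC is the fraction of cells separated from it. The number of pups behind each library was not given in the sources used here.

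Heparan sulfate is a linear polysaccharide that hangs from core proteins on the cell surface and in the matrix. EXT1 and EXT2 work together in the Golgi to lengthen the chain, NDST enzymes start its modification by replacing N-acetyl with N-sulfate, and 2-O-, 6-O- and 3-O-sulfotransferases follow. The resulting sulfation patterns bind growth factors such as FGFs and guidance molecules such as Slits. In the developing visual system, heparan sulfate and its 2-O- and 6-O-sulfotransferases are known for their part in steering RGC axons.

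The promoter windows found for the family span a wide range of CG content, and 2 of them are shown. Hs6st3, the gene chosen by its values, lies near the upper and Ndst3 at the lower end of this range. PRC2 is known to favour CG-rich promoters, but neither PRC2 binding nor H3K27me3 was measured here. Sequences run 5′ to 3′ on the strand of the gene, from 250 bases before to 50 after a RefSeq start (GRCm38.p6), with each CG in capitals. Hs6st3 is at chr14:119138015-119138314 on the plus strand, and the Ndst3 start shown is at chr3:123672428-123672727 on the minus strand. This Ndst3 start and the second one given below lie inside the annotated gene, whose 5′ end is at 123690853. The Hs3st1 window also lies inside its gene. The CG content at the annotated 5′ ends of Ndst3 and Hs3st1 is therefore not given.

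Hs6st3: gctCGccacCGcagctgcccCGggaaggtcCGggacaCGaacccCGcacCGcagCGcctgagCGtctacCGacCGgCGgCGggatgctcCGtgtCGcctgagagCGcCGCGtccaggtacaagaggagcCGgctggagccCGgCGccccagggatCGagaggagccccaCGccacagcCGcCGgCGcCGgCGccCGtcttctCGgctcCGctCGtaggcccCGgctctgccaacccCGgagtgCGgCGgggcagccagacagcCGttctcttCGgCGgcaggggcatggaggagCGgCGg

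Ndst3: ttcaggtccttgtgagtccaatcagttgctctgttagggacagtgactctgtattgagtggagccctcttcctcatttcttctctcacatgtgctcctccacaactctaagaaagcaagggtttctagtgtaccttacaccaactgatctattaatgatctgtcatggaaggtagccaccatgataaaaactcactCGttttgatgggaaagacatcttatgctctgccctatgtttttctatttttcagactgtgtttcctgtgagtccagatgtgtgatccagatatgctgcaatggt

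The Hs6st3 window held 41 CG pairs in 300 bases, as many as or more than all but 3.46% of the 32851 windows of the same length in the table. The Ndst3 window held 1, a number reached by 94.6% of windows, and a second Ndst3 start held 3. Hs6st1 was the richest with 47 (reached by 1.44%), and the other members with a window had 33 and 12 at 2 starts of Hs6st2, 32 in Hs2st1, 24 in Hs3st1, 20 in Ndst2 and 18 in Ext2. Of the 10 genes, 8 had a window, and Ndst1 and Ext1 had none in the table.

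The reads assigned to genes numbered between 7139633 and 13014004 per library, and the shallowest was a mKO non-RGC library. Libraries are lettered A, B and C within a group from the deepest to the shallowest, because the deposited means do not tell which numbered sample each one is. Ezh2 reads, counted over the whole gene, were not lower in mKO, at 1354 to 1476 normalized reads in mKO RGCs and 1190 to 1678 in WT RGCs. This count includes the exons outside the floxed part and does not check the deletion itself. By qPCR and Western blot, the paper found Ezh2 strongly reduced in P0 mKO RGCs. It also described a change of Ezh2 in its RNA-seq, which the count given here did not show. Thy1, the antigen of the sort, was at 1422 to 1426 in mKO RGCs, 2208 to 2519 in WT RGCs, at a mean of 79.9 in mKO non-RGCs and of 5.28 in WT non-RGCs. The summed level of 10 RGC markers was 20383 to 21416 in mKO RGCs against 27984 to 30427 in WT RGCs, and 4842 to 6315 in mKO non-RGCs against 3687 to 3915 in WT non-RGCs, with all 10 detected in every group. Retinal pigment epithelium markers summed to 446 to 715 in mKO RGCs against 211 to 349 in WT RGCs, and to 1687 to 1956 in mKO non-RGCs against 382 to 685 in WT non-RGCs, while their defining gene Rpe65 was at 0 in WT and at no more than 2.82 in mKO. The WT libraries C stood apart. In RGCs, WT library C had a progenitor marker sum of 20271, against 12068 to 13133 in the other 5 RGC libraries, and its stress gene Hspa1a was at 105 against 396 to 664. In non-RGCs, WT library C had Hspa1a at 7.30 against 487 to 1042. Members whose change moved by over 1.5 times or whose call changed without the WT library C of the fraction are given with and without it, and the part of these differences in the results was not tested.

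In WT RGCs, the most abundant members per length were Hs6st1 and Ndst1, and the same pair led in the other 3 groups. On the RPKM scale, which divides reads by exon length in kilobases and by the reads assigned to genes in the library, the WT RGC level was 36.0 ± 4.28 for Hs6st1 and 25.2 ± 0.998 for Ndst1 (SD, n = 3). Ext2 followed at 14.9 ± 1.41, Hs2st1 at 13.1 ± 0.583, Hs3st1 at 11.1 ± 2.27, Ndst2 at 9.34 ± 1.15 and Ext1 at 8.29 ± 0.576. Ndst3 at 6.28 ± 1.37 and Hs6st2 at 5.66 ± 0.888 were lower, and Hs6st3 was the lowest at 3.55 ± 1.59. In this order the libraries of Hs3st1 overlapped those of Ndst2, those of Ndst2 overlapped those of Ext1, and those of Ndst3 overlapped those of Hs6st2, whereas the other neighbours were apart. In WT non-RGCs the order began with Ndst1 at 27.7 ± 5.51, Hs6st1 at 21.3 ± 0.370 and Ext2 at 19.0 ± 3.44, with overlap between the libraries of Hs6st1 and Ext2, and ended with Hs6st3 at 3.63 ± 0.484 and Ndst3 at 1.86 ± 0.702. In mKO non-RGCs Hs6st1 and Ndst1 led by their means only. Ndst1 libraries (13.5 to 21.4) overlapped those of Hs2st1 (15.4 to 18.1) and Ext2 (14.8 to 17.2). Hs6st1 libraries (17.5 to 20.2) overlapped those of Hs2st1. The tables of the 2 fractions were normalized separately, so levels across fractions are set side by side and were not tested.

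**Figure D1:**
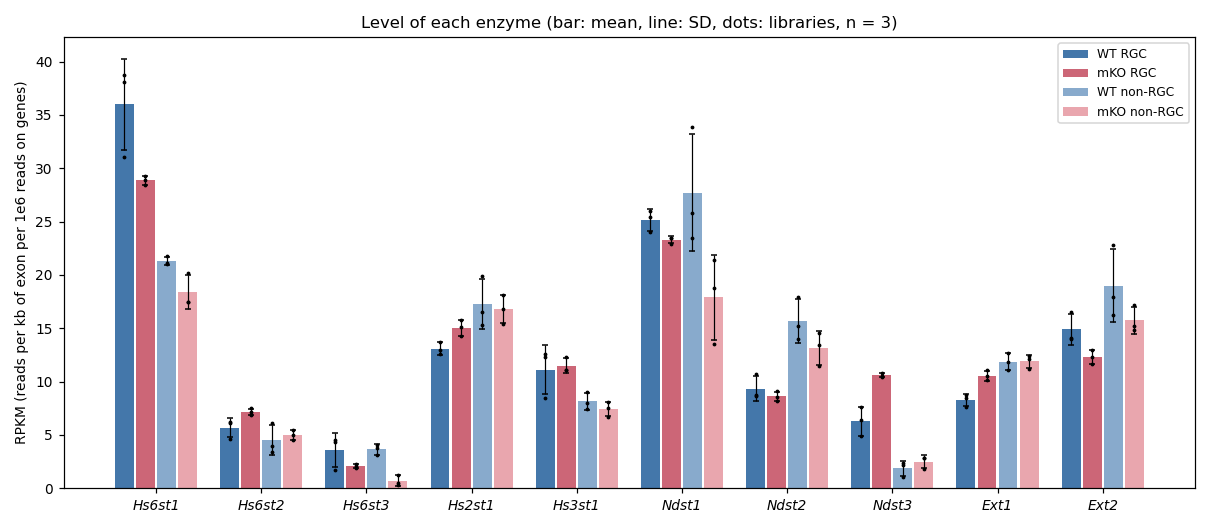
Level of the 10 enzymes in RPKM (reads scaled to exon length and to reads on genes, vertical axis, linear, from 0) in WT RGCs, mKO RGCs, WT non-RGCs and mKO non-RGCs. Bars are means, lines the SD over 3 libraries and dots the libraries, and the tallest bars are Hs6st1 in WT RGCs at 36.0 and in mKO RGCs at 28.9, followed by Ndst1 in WT non-RGCs at 27.7.

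Hs6st3, the 6-O-sulfotransferase that gives this set its start, is a gene of 1 annotated transcript on the plus strand of chromosome 14 (119138341 to 119869815, GRCm38), with 1708 bases of exon. In non-RGCs its normalized reads (reads divided by the size factor of the library) were 57.7, 71.6 and 79.2 in WT libraries A, B and C, and 21.6, 8.63 and 5.65 in mKO. These values came from 64, 74 and 76 reads in WT and from 28, 9 and 4 reads in mKO, so that counting alone limits the precision of the lower group. Every mKO non-RGC library lay below every WT one. The mean was 5.82-fold lower in mKO, and the log2 fold change on the scale of log2(normalized reads + 1) was -2.63. After removal of each library's trends with base composition (GC content) and read density (reads per exon base) it was -2.39. In RGCs the normalized reads of Hs6st3 were 97.3, 94.4 and 36.2 in WT and 44.5, 36.9 and 40.5 in mKO. WT libraries A and B lay above all mKO libraries, whereas WT library C lay below them all. The log2 fold change was -0.76 ± 0.386 (SE, n = 3) and did not pass the test (adjusted p = 0.162, limma). Without WT RGC library C, the one rich in progenitor markers, it was -1.22 and passed (adjusted p = 0.00117). In RPKM, Hs6st3 was at 3.63 ± 0.484 in WT non-RGCs, 3.55 ± 1.59 in WT RGCs, 2.07 ± 0.207 in mKO RGCs and 0.706 ± 0.504 in mKO non-RGCs, and among these the libraries of WT RGCs overlapped those of WT non-RGCs and of mKO RGCs. In bulk RNA of this kind, fewer cells that express a gene and less RNA per cell cannot be told apart.

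Hs6st1 and Hs6st2 carry out the same reaction and made up most of the 6-O-sulfotransferase RNA. Hs6st1 lies on chromosome 1 (36068400 to 36106446, plus strand), and its exons share bases with the antisense gene Gm37335, whose reads cannot be told apart from its own because the counting was not stated to use strand. In RGCs it was at 2686, 2677 and 2130 normalized reads in WT and at 1845, 1804 and 1865 in mKO. All 3 mKO libraries lay below all WT libraries, and Hs6st1 fell (log2 fold change -0.43 ± 0.0948, adjusted p = 0.0115, limma). In non-RGCs it was at 1284, 1292 and 1394 in WT and at 1108, 954 and 977 in mKO. The non-RGC libraries did not overlap either, yet the change of -0.39 ± 0.120 did not pass (adjusted p = 0.0674). Hs6st2, on the X chromosome (51387212 to 51681856, minus strand), was at 599, 614 and 448 in WT RGCs and at 663, 637 and 624 in mKO RGCs. The change was 0.23 ± 0.125 with an adjusted p of 0.198, and 0.080 without WT RGC library C. In non-RGCs the Hs6st2 groups overlapped, with 292, 345 and 552 in WT and 422, 382 and 357 in mKO, and the log2 fold change was 0.015 ± 0.228, or 0.28 without WT non-RGC library C.

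Read as shares of the 6-O-sulfotransferase RNA per length, Hs6st1 held between 72.6% and 79.9% as a group mean in the 4 groups. Hs6st3 held 12.3% ± 1.02 in WT non-RGCs and 2.81% ± 1.71 in mKO non-RGCs, a description of the same fall for which it was chosen. In RGCs its share was 7.58% ± 2.61 in WT, where library C had 4.58%, and 5.43% ± 0.418 in mKO. The share of Hs6st2 was 12.5% ± 0.202 in WT RGCs and 18.8% ± 0.541 in mKO RGCs, with no overlap between libraries (12.4% to 12.8% against 18.2% to 19.1%). The shares were not corrected for base composition, and Hs6st2 has a lower exon GC content (46.2%) than Hs6st1 (54.8%). With the trends with GC content and read density removed, the RGC changes were -0.024 for Hs6st1 and 0.0064 for Hs6st2. No background was computed for this lack of overlap.

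**Figure D2:**
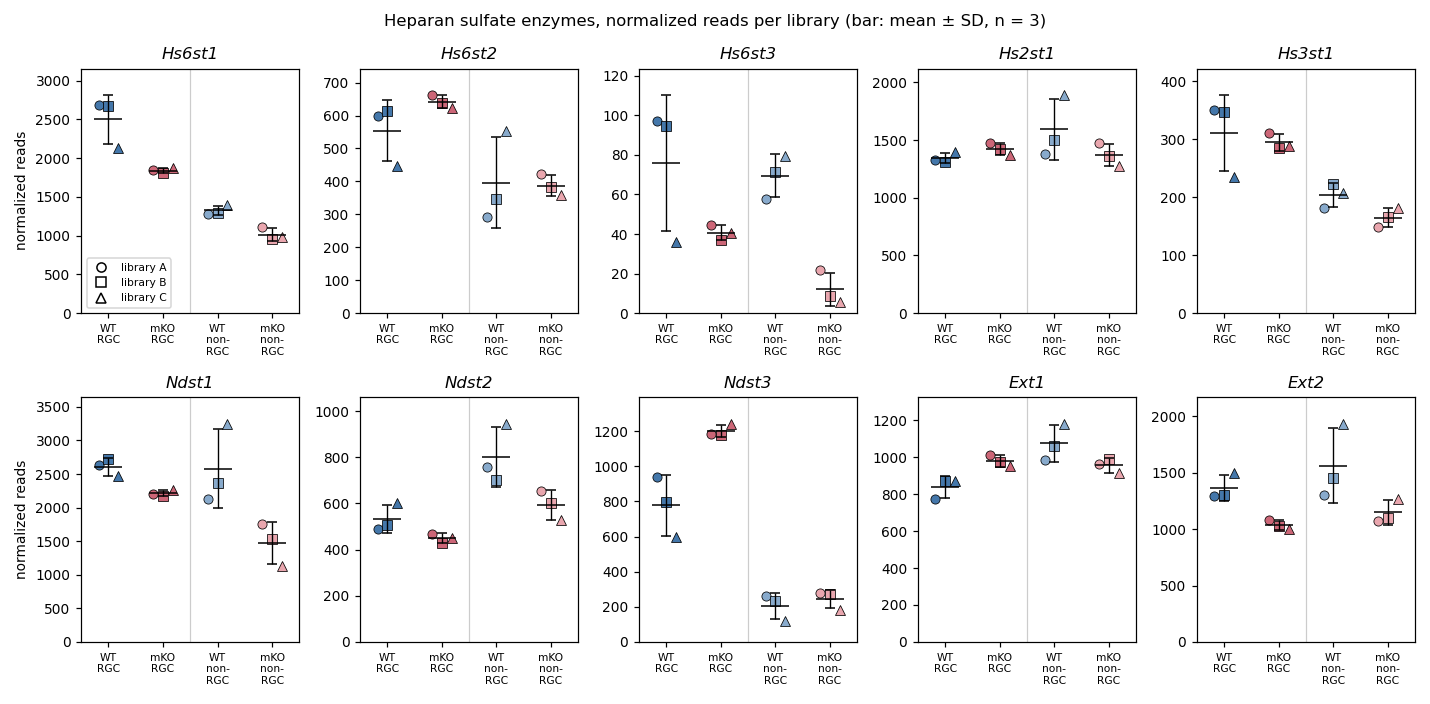
Normalized reads of each of the 10 enzymes (vertical axes, linear, from 0, a different range in each panel) in the 3 libraries of WT RGCs, mKO RGCs, WT non-RGCs and mKO non-RGCs, with circles, squares and triangles for libraries A, B and C and bars for mean and SD. Hs6st3 shows WT RGC library C at 36.2, below the mKO RGC libraries, and mKO non-RGC libraries at 21.6 or less.

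Hs2st1, the single 2-O-sulfotransferase, lies on chromosome 3 (144429706 to 144570181, minus strand) and did not pass the test in either fraction. It was at 1328, 1309 and 1395 in WT RGCs and at 1471, 1423 and 1367 in mKO RGCs, where the groups overlapped and the log2 fold change was 0.08 ± 0.0555 (adjusted p = 0.295, limma, interval -0.05 to 0.21). With reads scaled to library totals, which moved the median of all genes up by 0.12 in this fraction, it was 0.20 and passed (adjusted p = 0.0409). In non-RGCs Hs2st1 was at 1380, 1502 and 1893 in WT and at 1470, 1365 and 1278 in mKO, again overlapping, with a change of -0.20 ± 0.142, or -0.073 without WT library C.

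Hs3st1, a 3-O-sulfotransferase on chromosome 5 (39613935 to 39755475, minus strand), had 350, 347 and 235 normalized reads in WT RGCs and 311, 284 and 288 in mKO RGCs. WT library C was below the mKO libraries and the other WT libraries above them, as for Hs6st3. The log2 fold change was -0.06 ± 0.165 (adjusted p = 0.815), and without WT RGC library C it was -0.24 and passed (adjusted p = 0.0314, limma). In non-RGCs Hs3st1 was at 181, 223 and 206 in WT and at 148, 165 and 181 in mKO, with a change of -0.30 ± 0.185 that did not pass.

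Among the N-deacetylase/N-sulfotransferases, Ndst1 was lower and Ndst3 higher in mKO RGCs. Ndst1, on chromosome 18, is the NDST found in most tissues. It was at 2627, 2728 and 2465 normalized reads in WT RGCs and at 2208, 2175 and 2264 in mKO RGCs. The groups did not overlap and Ndst1 fell by 0.23 on the log2 scale (SE 0.0559, adjusted p = 0.0164, limma). It did not pass without WT library A or B or mKO library A or B (adjusted p from 0.0525 to 0.0700), nor with reads scaled to library totals (-0.11, adjusted p = 0.125). In non-RGCs Ndst1 was at 2127, 2363 and 3250 in WT and at 1749, 1536 and 1130 in mKO. Each mKO library lay below each WT library, and the change was -0.81 ± 0.196 (adjusted p = 0.0326). It did not pass without WT non-RGC library C (-0.63, adjusted p = 0.0671), without mKO non-RGC library C (-0.63, adjusted p = 0.0641), without WT library B (adjusted p = 0.0737), without mKO library B (adjusted p = 0.105), or with reads scaled to library totals (-0.64, adjusted p = 0.0596).

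Ndst3, whose product has strong N-deacetylase and weak N-sulfotransferase activity, lies on chromosome 3 (123526166 to 123690853, minus strand). In RGCs it was at 940, 797 and 595 in WT and at 1181, 1179 and 1243 in mKO. All mKO libraries lay above all WT libraries, with WT library C the lowest, and Ndst3 rose (log2 fold change 0.65 ± 0.154, adjusted p = 0.0155, limma). Leaving out any 1 of the mKO RGC libraries ended the call, with adjusted p from 0.0511 to 0.0599 and the change between 0.63 and 0.67. In non-RGCs Ndst3 was at 259, 233 and 122 in WT and at 277, 274 and 184 in mKO. These groups overlapped, and the change of 0.30 ± 0.297 became -0.03 without WT non-RGC library C. Ndst3 made up 15.4% ± 3.00 of the RNA of the 3 NDST genes per length in WT RGCs and 24.9% ± 0.423 in mKO RGCs, against 4.31% ± 2.02 in WT non-RGCs and 7.40% ± 0.596 in mKO non-RGCs. Ndst4, a further NDST gene expressed in RGCs and described below, is not part of these shares. These shares were not corrected for base composition either, and Ndst3 (42.2% GC) lies below Ndst1 (54.4%) and Ndst2 (55.1%). With the trends with GC content and read density removed, the RGC changes were 0.30 for Ndst3, 0.12 for Ndst1 and 0.048 for Ndst2, without a call.

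Ndst2, known for heparin synthesis in mast cells, lies on chromosome 14 (20723730 to 20734562, minus strand). It was at 489, 505 and 600 in WT RGCs and at 469, 427 and 452 in mKO RGCs, where the groups did not overlap but the change of -0.24 ± 0.0973 did not pass (adjusted p = 0.0967, limma) and was -0.15 without WT library C. In non-RGCs it was at 757, 702 and 946 in WT and at 656, 600 and 527 in mKO, with a change of -0.42 ± 0.158 (adjusted p = 0.108). The libraries of the 2 genotypes were again apart.

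The 2 subunits of the polymerase moved in opposite directions in RGCs before base composition was taken into account. With the trends with GC content and read density removed, the RGC changes were -0.26 for Ext2 and -0.016 for Ext1, without a call. Ext2, on chromosome 2 (93661028 to 93822568, minus strand), was at 1292, 1302 and 1497 in WT RGCs and at 1081, 1029 and 998 in mKO RGCs. The groups did not overlap, and Ext2 fell (log2 fold change -0.39 ± 0.0745, adjusted p = 0.00668, limma), the smallest adjusted p among the members in this fraction. Ext1, on chromosome 15 (53064038 to 53346159, minus strand), was at 771, 870 and 873 in WT RGCs and at 1012, 973 and 952 in mKO RGCs, also without overlap. Ext1 rose (0.23 ± 0.0694, adjusted p = 0.0397), although leaving out any 1 library other than WT library C ended this call, with adjusted p from 0.0588 to 0.140. In non-RGCs Ext2 was at 1304, 1452 and 1936 in WT and at 1073, 1102 and 1271 in mKO, again apart, with a change of -0.43 ± 0.160 that did not pass (adjusted p = 0.110) and was -0.26 without WT library C. Ext1 was at 983, 1059 and 1181 in WT non-RGCs and at 964, 991 and 914 in mKO non-RGCs, with overlap and a change of -0.16 ± 0.124, which was -0.094 without WT library C and 0.0068 with reads scaled to library totals.

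Counted over the family, 5 of 10 members passed in RGCs, with Hs6st1, Ndst1 and Ext2 lower and Ndst3 and Ext1 higher. The background was high, since 37.5% of the 16085 genes tested passed in this fraction, 21.2% lower and 16.3% higher, so that a count of 5 is close to what the whole table gave. It became 3 without WT RGC library A or B or mKO RGC library C, 2 without mKO RGC library A or B, and 7 without WT RGC library C, when 51% of genes passed. The groups of 4 members were apart with mKO lower (28.2% of all genes) and those of 3 with mKO higher (24.8%). In non-RGCs 1 of the 9 members other than Hs6st3 passed, against 10.6% of 15326 genes. There Hs6st1, Hs3st1, Ndst1, Ndst2 and Ext2 were apart with mKO lower, beside 19.2% of all genes. Hs6st3 was apart too but was chosen for its fall there, so it is not counted. Hs3st1 was apart by a narrow margin, with its highest mKO library at 180.8 and its lowest WT library at 181.4. No member was apart with mKO higher (17.5% of all genes), and 4 overlapped. The median log2 fold change of the 9 members was -0.06 in RGCs and -0.30 in non-RGCs, beside -0.002 and -0.03 over all genes tested. The direction of calls in the whole table depended on the scaling. With the deposited size factors 2622 genes were higher and 3405 lower in mKO RGCs, and with library totals 3846 and 2240. In non-RGCs the split was 641 higher and 985 lower with the size factors and 1329 and 447 with library totals, which moved the median of all genes up by 0.17.

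The difference between the effect in non-RGCs and the effect in RGCs was tested in 1 model over the 12 libraries. None of the 9 members other than Hs6st3 passed (smallest adjusted p = 0.455, limma), where 0.0969% of 16517 genes did. At an unadjusted p under 0.05 there were 2 members, Ndst1 with a difference of -0.58 ± 0.228 (95% interval -1.07 to -0.08) and Ext1 with -0.39 ± 0.134 (-0.68 to -0.10), beside 9.66% of all genes. Without both WT libraries C the difference of Ndst1 was -0.36 and only Ext1 (-0.35) remained under this unadjusted limit. Ndst1 also left it without WT RGC, WT non-RGC or mKO non-RGC library C alone (-0.40 to -0.54). Ndst3, at -0.35 with all libraries, came under this limit without WT non-RGC library C (-0.68). For the other members the intervals were wide, such as -0.26 to 0.36 for Hs6st1 and -0.44 to 0.37 for Ext2, so that differences of moderate size between the fractions would not be seen.

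The changes of the members followed the GC content of their exons, as those of the whole table did, more closely in RGCs than in non-RGCs. Over genes averaging 50 or more normalized reads, the log2 fold change and exon GC content had a Spearman rho of -0.72 in RGCs (12239 genes) and -0.49 in non-RGCs (11693 genes), across genes that share libraries. From the lowest to the highest of 5 equally sized bins of GC content, the median change of genes went from 0.35 to -0.45 in RGCs and from 0.17 to -0.35 in non-RGCs. Hs6st3 has the highest exon GC content of the family at 58.5%, and Ndst3 the lowest at 42.2%. The 5 members of highest GC content (Ext2, Hs6st1, Hs6st3, Ndst1 and Ndst2, 51.5% to 58.5%) all had a negative change in RGCs. In non-RGCs so did those other than Hs6st3, which was chosen for its fall there and does not count. Of the 5 of lowest GC content (Ext1, Hs2st1, Hs3st1, Hs6st2 and Ndst3, 42.2% to 51.2%), 4 had a positive change in RGCs and 2 in non-RGCs. Hs3st1, at 51.2% the nearest to the cut, had a negative change in both fractions.

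**Figure D3:**
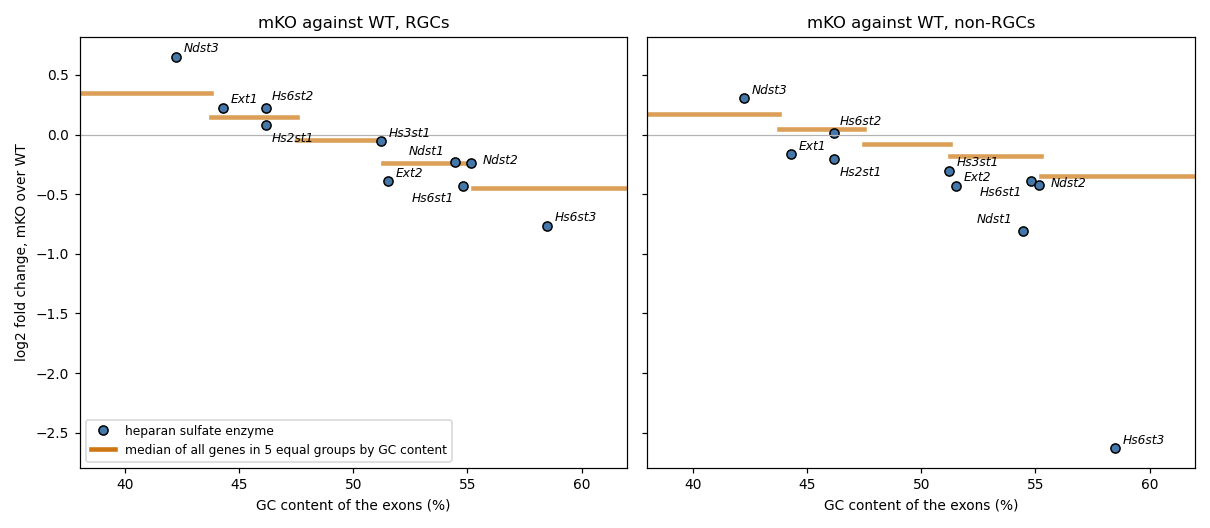
Log2 fold change of mKO over WT (vertical axis) against GC content of the exons in percent (horizontal axis) for the 10 enzymes, in RGCs and in non-RGCs, with lines for the median of all genes in 5 equally sized bins of GC content. The points run down with GC content as the lines do, from Ndst3 at 42.2% to Hs6st3 at 58.5%, and Hs6st3 in non-RGCs, the value by which it was chosen, is at -2.63.

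With the GC trend of each library removed, 0 of 10 members passed in RGCs by limma, against 13.8% of genes, and Ext2 had an unadjusted p under 0.05. When the trends with GC content and read density were both removed, 0 of 10 passed in RGCs by limma, against 6.29% of genes, and Ext2 alone had an unadjusted p under 0.05 (change -0.26, adjusted p = 0.0594). The changes of Hs6st1 (-0.024), Ext1 (-0.016), Ndst1 (0.12) and Ndst3 (0.30) then had adjusted p from 0.314 to 0.914. When WT RGC library C was also left out, 3 members passed, against 23.3% of genes, all lower in mKO. These were Hs6st1 (-0.14), Ext2 (-0.23) and Hs6st3 (-0.87, adjusted p = 0.0160). In non-RGCs, the change of Ndst1 with both trends removed was -0.56 (adjusted p = 0.171), and none of the 9 members other than Hs6st3 passed by limma, against 1.7% of genes, with Ndst1 and Ext1 at an unadjusted p under 0.05.

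**Figure D4:**
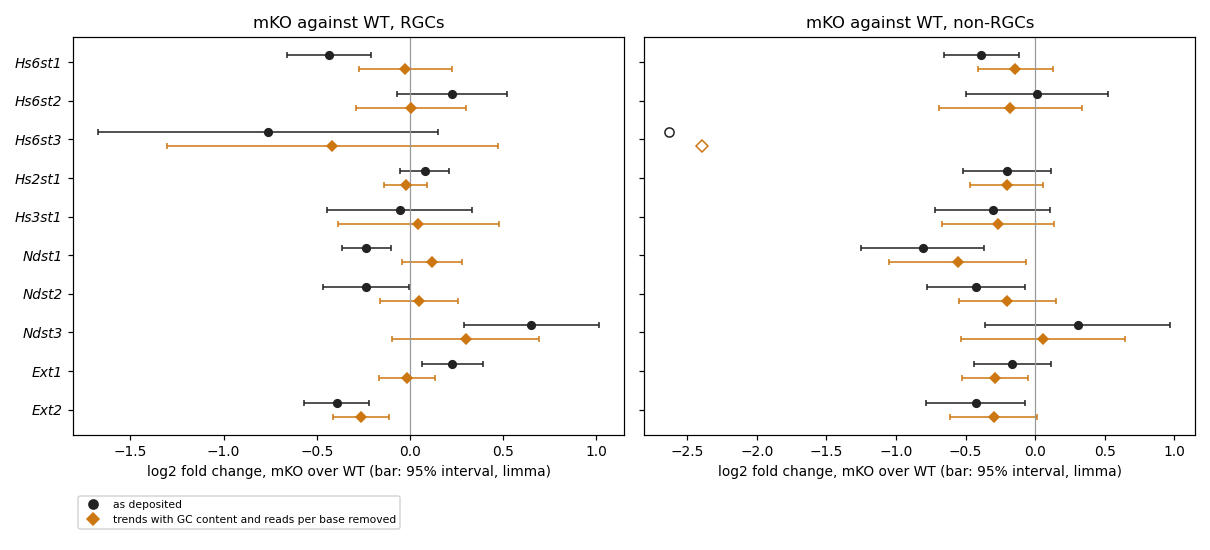
Log2 fold change of mKO over WT for the 10 enzymes (horizontal axis) in RGCs and non-RGCs, as deposited (circles) and after removal of the trends with GC content and read density (diamonds), with 95% intervals from limma. Open symbols without interval mark Hs6st3 in non-RGCs, at -2.63 and -2.39, and in RGCs the interval of Ext2 is the only one that stays away from 0 after removal of the trends.

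The genes whose pattern was most like that of Hs6st3 were looked for among the 14015 genes that averaged 10 or more normalized reads in each group. Log2 values were centred within each fraction and compared over the 12 libraries, so that the genotype difference and the low WT RGC library C both enter the likeness. The genotype difference includes the fall in non-RGCs by which Hs6st3 was chosen, so the ranking is no test of a shared change. Among the closest were Elfn2 (Pearson r = 0.986), Bcr (0.984), Dchs1 (0.980) and Cnnm2 (0.978). Within the family, Ndst1 (0.916) and Hs6st1 (0.857) were the most like Hs6st3 and Ndst3 (-0.23) the least. These values share libraries, depth and the trend with base composition, and are given as a description.

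Around the family, the other genes of the pathway were taken as lists. In RGCs 31 of 76 tested genes passed, 13 higher and 18 lower, and in non-RGCs 12 of 72, 1 higher and 11 lower, beside the backgrounds of 37.5% and 10.6%. With both trends removed there were 6 in each fraction, beside 6.29% and 1.7% of genes. In non-RGCs the 12 calls became 1 without mKO library B and 2 without WT library B, and the counts without other single libraries were 8 to 13. Among the enzymes of the linkage region, the tetrasaccharide that ties the chain to serine, 3 of 6 fell in RGCs and none rose. Xylt1, which adds the first xylose, had a change of -0.71 ± 0.136 in RGCs (adjusted p = 0.00714, limma) and fell from 173 to 311 normalized reads in WT non-RGCs to 55.1 to 117 in mKO non-RGCs (-1.44 ± 0.313, adjusted p = 0.0236). It passed in both fractions also with both trends removed (-0.80 and -1.44). B3gat3, which adds the glucuronic acid that completes the linkage, fell in RGCs (-0.73, and -0.31 with both trends removed), and Xylt2 fell by 0.26 on the log2 scale, a change that turned to 0.17 with both trends removed.

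Of the other chain enzymes, 4 of 10 rose and 1 fell in RGCs. Glce, the C5-epimerase that makes iduronic acid, rose by 0.30 and the initiation enzyme Extl3 fell by 0.31, and neither passed with both trends removed. Hs3st3a1, a 3-O-sulfotransferase, went from 7.60 to 9.12 normalized reads in WT RGCs to 17.5 to 25.8 in mKO RGCs (1.27 ± 0.275, adjusted p = 0.0111, limma) and passed with both trends removed (1.40). Extl2 (0.21) and Ndst4 (0.68), named here after their values were seen, completed the higher calls, and with both trends removed neither passed (0.16 and 0.036). Ndst4, the fourth NDST gene, was at 195 to 342 normalized reads in WT RGCs and 424 to 484 in mKO RGCs, and mKO RGCs were its highest group, as for Ndst3. In non-RGCs 1 of 8 passed, Hs3st3b1, which fell from 496 to 657 to 285 to 344 (-0.89 ± 0.164, adjusted p = 0.0145) and also passed with both trends removed (-0.83). In that setting 1 further gene of the 8 passed, higher in mKO.

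Sulf2, the extracellular 6-O-endosulfatase that edits finished chains, was lower in both fractions (-0.40 and -0.54), and with both trends removed its change was 0.00066 in RGCs and -0.23 in non-RGCs, without a call. It was the only one of 3 tested trimming genes that passed. Of the 7 tested genes for sulfate and sugar donors, 4 rose and 1 fell in RGCs and none of 6 passed in non-RGCs by limma, where none had an unadjusted p under 0.05. Slc26a2, a sulfate transporter, rose by 0.73 (adjusted p = 0.00215), Ugdh, which makes UDP-glucuronic acid, by 0.29, and Impad1, a Golgi phosphatase that clears a by-product of sulfation, by 0.27, while Papss1, which makes the sulfate donor PAPS, fell by 0.30. The remaining higher call was Slc35b3 (0.28), a PAPS transporter named after its values were seen. Impad1 alone of these passed with both trends removed (0.26), but its change was -0.16, without a call, with the GC trend alone removed.

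Among 13 core proteins that carry heparan sulfate, Sdc3 (-0.65), Gpc1 (-0.60), Gpc2 (-0.43) and Agrn (-0.49) fell in RGCs and Gpc6, named after its values were seen, rose (0.45). In non-RGCs Sdc3 (-0.71), Gpc1 (-0.57) and Agrn (-0.60) fell among 12 tested. With both trends removed none of the 13 in RGCs and none of the 12 in non-RGCs passed by limma, with 1 and 0 at an unadjusted p under 0.05. Among the lysosomal breakdown genes, Naglu (-0.61) fell in RGCs, a call lost with both trends removed (-0.19), and none passed in non-RGCs by limma, where 2 had an unadjusted p under 0.05. Chondroitin sulfate shares the linkage region with heparan sulfate, and among its 15 tested synthesis genes 3 rose and 3 fell in RGCs. Csgalnact1 (0.92), Csgalnact2 (0.66) and the epimerase Dsel (0.65) rose, while the polymerising factor Chpf fell in RGCs (-0.70) and in non-RGCs (-0.69). Chpf2 (-0.38 in RGCs and -0.89 in non-RGCs) and Chst12 (-0.73 in RGCs), named after their values were seen, made up the other calls, and with both trends removed none of the 15 passed in either fraction by limma, with 3 in RGCs and 6 in non-RGCs at an unadjusted p under 0.05.

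Genes of the ligands and receptors that bind heparan sulfate were followed in 2 lists. Of 6 Slit and Robo genes, which guide axons, Robo3 fell in RGCs (-1.01), and Slit1 (-0.81) and Robo1 (-0.87) fell in non-RGCs. With both trends removed, Robo3 (-0.76) and Slit1 (-0.45) did not pass in the fraction where each had fallen. Robo1 was at 2027 to 2535 normalized reads in WT non-RGCs and 1000 to 1482 in mKO non-RGCs, and with both trends removed it passed in non-RGCs (-0.96) and in RGCs (-0.44). In non-RGCs 2 of the 6 genes passed in this setting, Robo1 among them, both lower in mKO. Of 8 FGF receptors and co-receptors, Flrt3, a membrane protein that binds FGF receptors, was the one that rose. It went from 433 to 596 normalized reads in WT RGCs to 1023 to 1177 in mKO RGCs (1.01 ± 0.132, adjusted p = 0.00164, limma) and from 640 to 828 to 1362 to 1582 in non-RGCs (1.00 ± 0.138, adjusted p = 0.00638). Flrt3 passed with both trends removed in RGCs (0.75) and in non-RGCs (0.91). Fgfr1 fell in both fractions (-0.51 and -0.64) and Fgfr4 in RGCs (-0.70), and neither passed with both trends removed.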

How the data were processed

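RNA-seq of WT and mKO RGCs and non-RGCs was analysed (4 groups, 3 libraries each). According to the paper and the submitters' processing notes, the authors made poly-A libraries with the NEBNext Ultra kit, sequenced single-end reads, aligned them to mm10 with STAR 2.3.1z4, counted reads per gene with featureCounts, removed duplicates and normalized with DESeq. The deposited signal values are the authors' normalized counts averaged over the 3 libraries of a genotype, each library having its own size factor, in 1 table per fraction. The tables also hold the authors' ratios, log2 values and p-values, which were not used. No further per-sample column was found (0).

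The digits of these means allowed the reads of each library to be solved for, with exactly 1 solution for 100% of genes with reads in each group. Recovery was tested on simulated data. Reads were divided by the recovered size factors and tested with limma 3.58.1 with a mean-variance trend (R 4.3.3) on log2(value + 1). Genes averaging 10 or more in at least 1 genotype were tested, with Benjamini-Hochberg adjustment over all genes tested and a call at an adjusted p under 0.05. The pseudocount of 1 makes fold changes of low genes too small. The difference between fractions was fitted over all 12 libraries, where the scales of the 2 tables cancel. The deposited values are means, so no count model was run. Exact permutation of 3 against 3 cannot go below p = 0.1 and was not run. Levels in RPKM were computed here from the recovered reads. P-values measure the spread between RNA extractions, which may be technical where extractions shared animals.

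Gene positions, lengths of merged exons and their GC content were taken from GENCODE M21 (GRCm38) by symbol, and GC content was known for 94.9% of genes averaging 50 or more. Trends were removed per library by lowess over a share of 0.3 of genes (GC content) or by 300 neighbouring genes (GC content and reads per base).

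The members and gene lists were chosen with earlier results of these data known. Named are all members, up to 4 genes per pathway list with the smallest adjusted p under 0.05 in either fraction, Ezh2, Thy1, and the 5 genes most like Hs6st3. Some genes that this rule names are not reported here. Genes named outside this rule are marked as named after their values were seen. Rpe65 and Hspa1a were also named after their values were seen. Alternatives were another pseudocount, other filters, scalings, voom weights, removal of trends, a fold threshold of 1.5, and leaving out each library.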

Additional observations from a re-analysis of the deposited data

How the results depend on the processing

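In RGCs 6027 genes and 5 members passed. The counts were 2095 and 0 after removal of the GC trend, 954 and 0 after removal of both the GC and the read density trend, 2158 and 1 with a fold change of at least 1.5 added to the threshold, and 3529 and 3 with both trends removed and WT library C left out, an alternative chosen after seeing the data. Of other pathway genes 31 passed, against 11, 6 and 16 under the first 3 of these. In non-RGCs 1626 genes, 1 member other than Hs6st3 and 12 other pathway genes passed. The counts were 211, 0 and 2 after removal of the GC trend and 246, 0 and 6 after removal of both. With both removed and WT library C left out they were 563 genes and 0 members, with library totals 0 members and 7 pathway genes, and with voom weights 0 members. For the difference, 16 genes passed, against 41 without both WT libraries C, also chosen after seeing the data. Leaving out 1 library gave 3776 to 8200 genes, 2 to 7 members and 22 to 38 pathway genes in RGCs, 139 to 1621 genes, 0 to 1 members and 1 to 13 pathway genes in non-RGCs, and 7 to 237 genes and 0 to 2 pathway genes for the difference. The causes were not tested.

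Several log2 fold changes turned. After removal of the GC trend, the RGC values were Hs2st1 -0.020, Hs3st1 0.095, Ndst1 0.060, Ndst2 0.087, Xylt2 0.27 and Impad1 -0.16, and Hs6st2 was -0.022 in non-RGCs. After removal of both trends, the RGC values were Hs2st1 -0.022, Hs3st1 0.046, Ndst1 0.12, Ndst2 0.048, Ext1 -0.016, Xylt2 0.17, Extl3 0.063, Sulf2 0.00066, Papss1 0.055, Gpc2 0.017 and Agrn 0.084, and Hs6st2 was -0.18 in non-RGCs. With WT library C also left out, the RGC values were Hs6st2 -0.13, Hs2st1 -0.0097, Ndst1 0.057, Ndst2 0.10, Xylt2 0.18, Extl3 0.0049, Sulf2 0.015, Papss1 0.051, Gpc2 0.058 and Agrn 0.13, and Ndst3 was -0.29 in non-RGCs. With library totals and voom weights, Hs3st1 in RGCs was 0.067 and 0.057, and Ext1 in non-RGCs 0.0068 and 0.014. The difference between fractions for Hs6st1 was -0.034 after removal of the GC trend and -0.12 after removal of both, and without both WT libraries C it was 0.20 for Hs6st2 and 0.060 for Ext2. With 1 library left out, Hs3st1 ranged from -0.24 to 0.042 in RGCs, Hs6st2 from -0.18 to 0.28 and Ndst3 from -0.030 to 0.51 in non-RGCs, and the difference from -0.019 to 0.16 for Hs6st1, -0.40 to 0.054 for Hs6st2 and -0.16 to 0.13 for Ext2.

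No paired analysis was possible because the recovered libraries carry no replicate number. Depth limits Hs6st3 most, with 4 to 96 reads per library.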

Other observations

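Markers of other cell types differed between the genotypes beside the enzymes. In non-RGCs the summed level of 8 photoreceptor markers was 10105 to 11892 in mKO and 13913 to 15683 in WT, that of 8 amacrine and horizontal markers 8169 to 9542 and 11097 to 12162, that of 8 progenitor markers 17457 to 21352 and 22650 to 28278, and that of 8 endothelial and pericyte markers 5285 to 6060 and 6873 to 7158. In RGCs photoreceptor markers summed to 5852 to 6296 in mKO and 7025 to 10609 in WT, where library C was the highest. Amacrine and horizontal markers were at 4984 to 5120 in mKO RGCs and 5540 to 6713 in WT RGCs, also apart. The progenitor sums and the endothelial and pericyte sums overlapped between genotypes in RGCs. Microglia and blood markers summed to 515 to 650 in mKO non-RGCs and 135 to 324 in WT non-RGCs, and overlapped in RGCs. The 6 astrocyte markers overlapped between genotypes in RGCs, at 266 to 1080 and 330 to 536, and in non-RGCs, at 237 to 644 and 586 to 648. Lens markers were at or below 98.0 in every library. Kidney markers were at 54.7 to 89.0 in the WT libraries of both fractions and at 3.69 to 6.71 in the mKO libraries. The part of these differences in the values of the 10 enzymes was not tested.

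Atoh7, the locus that carries Cre, was at 224 to 260 normalized reads in WT non-RGCs and 128 to 181 in mKO non-RGCs (log2 fold change -0.71, adjusted p = 0.0492, limma). In RGCs it was at 50.8 to 89.4 in mKO and at 81.1, 84.7 and 293 in WT, the highest in library C.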
